A study of Mus musculus with 9 samples.

Results

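The histone genes were represented by 34 of the 34760 probesets on the array, chosen by name alone. A probeset was a member if it was annotated with exactly 1 gene symbol and that symbol belonged to the histone clusters, to the numbered H1 genes, or to H2ax, H2az1, H3f3a or H3f3b. The 34 probesets stand for 33 genes, since H2az1 had 2. By gene type, 24 probesets belonged to replication-dependent histones, 5 to replacement histones (H1f10, H2ax, the 2 of H2az1 and H3f3a) and 5 to germline histones (H1f6, H1f7, H1f8, H2ac1 and H2bc1). Current symbols are used, with the older name in brackets where a gene is first described.

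Transcripts were profiled in 3 strains of HC11, a mouse mammary epithelial cell line from mid-pregnancy BALB/c mice, with 3 arrays per strain. Each strain stably expressed a variant of Mkl1, a coactivator of the transcription factor SRF, fused to RFP: Mkl1 without its SAP domain (HC11-ΔSAP), Mkl1 with alanine substitutions in the B1 domain that contacts SRF (HC11-mutB1), or full length Mkl1 (HC11-FL), which served as the control. The cultures had been starved for 48 h in 0.03% FCS without EGF, and all strains kept their own Mkl1. Each construct was represented by 1 population of sorted RFP-positive cells and no strain with RFP alone was arrayed, so that construct and strain cannot be told apart.

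The defining epithelial genes were present, with mean RMA-normalised log2 levels of 8.77 to 10.97 for the 6 listed (Krt8, Krt18, Krt14, Krt5, Epcam and Cdh1), whereas endothelial Pecam1, Cdh5 and Kdr, leukocyte Ptprc and adipocyte Adipoq all stayed under the minimum of 4 set for expressed probesets. Of the other leukocyte and adipocyte markers, Cd68 (7.73), Cd3e (4.70) and Plin1 (4.62) were above it. The summed linear level of the 3 leukocyte markers was 317 to 325 in HC11-ΔSAP, 192 to 205 in HC11-mutB1 and 243 to 252 in HC11-FL arrays, and that of the epithelial genes was 6496 to 6576 in HC11-ΔSAP, 8752 to 8969 in HC11-mutB1 and 7223 to 7452 in HC11-FL arrays. All 5 fibroblast markers reached 4, with means of 5.03 to 7.01 and a summed linear level of 345 to 353 in HC11-ΔSAP, 365 to 399 in HC11-mutB1 and 420 to 443 in HC11-FL arrays. The part of these markers in the histone results was not tested. Nothing says that the 3 arrays of a strain came from separate cultures, so the p-values measure the spread between these arrays.

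Histones package DNA: H2A, H2B, H3 and H4 form the nucleosome core, and H1 binds the linker DNA. Replication-dependent genes lie in clusters and are transcribed mainly in S phase into mRNAs that end in a stem-loop instead of a poly(A) tail, so that histone supply follows DNA synthesis. Replacement histones are encoded by single genes with polyadenylated mRNAs and are made throughout the cell cycle, while germline histones serve mainly in the testis or oocyte.

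Histone transcripts were lower in HC11-ΔSAP cells than in HC11-FL cells. Of the 34 members, 16 fell and none rose at an adjusted p of at most 0.01 (limma, Benjamini-Hochberg over all probesets, mean log2 level of at least 4), where 10.1% of the 20286 expressed probesets fell and 11.9% rose. At an unadjusted p under 0.05, 19 expressed members were lower and again 0 higher. The share over all expressed probesets was not counted at this unadjusted threshold, here or below. At least 2-fold lower were 5 members, against 1.51% of expressed probesets, and 0 were 2-fold higher, against 1.49%. Only 25 of the 34 members reached the expression minimum and could be called. In such bulk RNA, a lower share of cells in S phase and less histone mRNA per cell cannot be told apart.

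The replication-dependent class held 11 of these 16 calls, and also 24 of the 34 members. Of its 24 probesets 11 fell and 0 rose (14 and 0 expressed ones at an unadjusted p under 0.05, limma). Of these 24, 23 had a negative log2 fold change, with a median of -0.51. Among expressed probesets only, 11 of 18 replication-dependent, 3 of 4 replacement and 2 of 3 germline ones fell. The 5 replacement probesets had 3 that fell, none of them 2-fold, and a median of -0.38. That median counts H2az1 by both of its probesets. It was -0.19 with 1 probeset per gene and 0.020 when probesets of several symbols, 6 of them of H3.3, were added. Of the 5 germline probesets 2 fell, with a median of -0.03 that includes 2 under the expression minimum. These medians are over all members of a class, and the median over all 34760 probesets was -0.0047. Over expressed probesets only, the class medians were -0.73 (replication-dependent), -0.39 (replacement) and -0.55 (germline), against -0.013 over all expressed probesets. The calls spread over both clusters that were represented: 9 of 20 probesets of chromosome 13 and 2 of 4 of chromosome 3 fell. The difference between the classes was not itself tested.

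**Figure D1:**
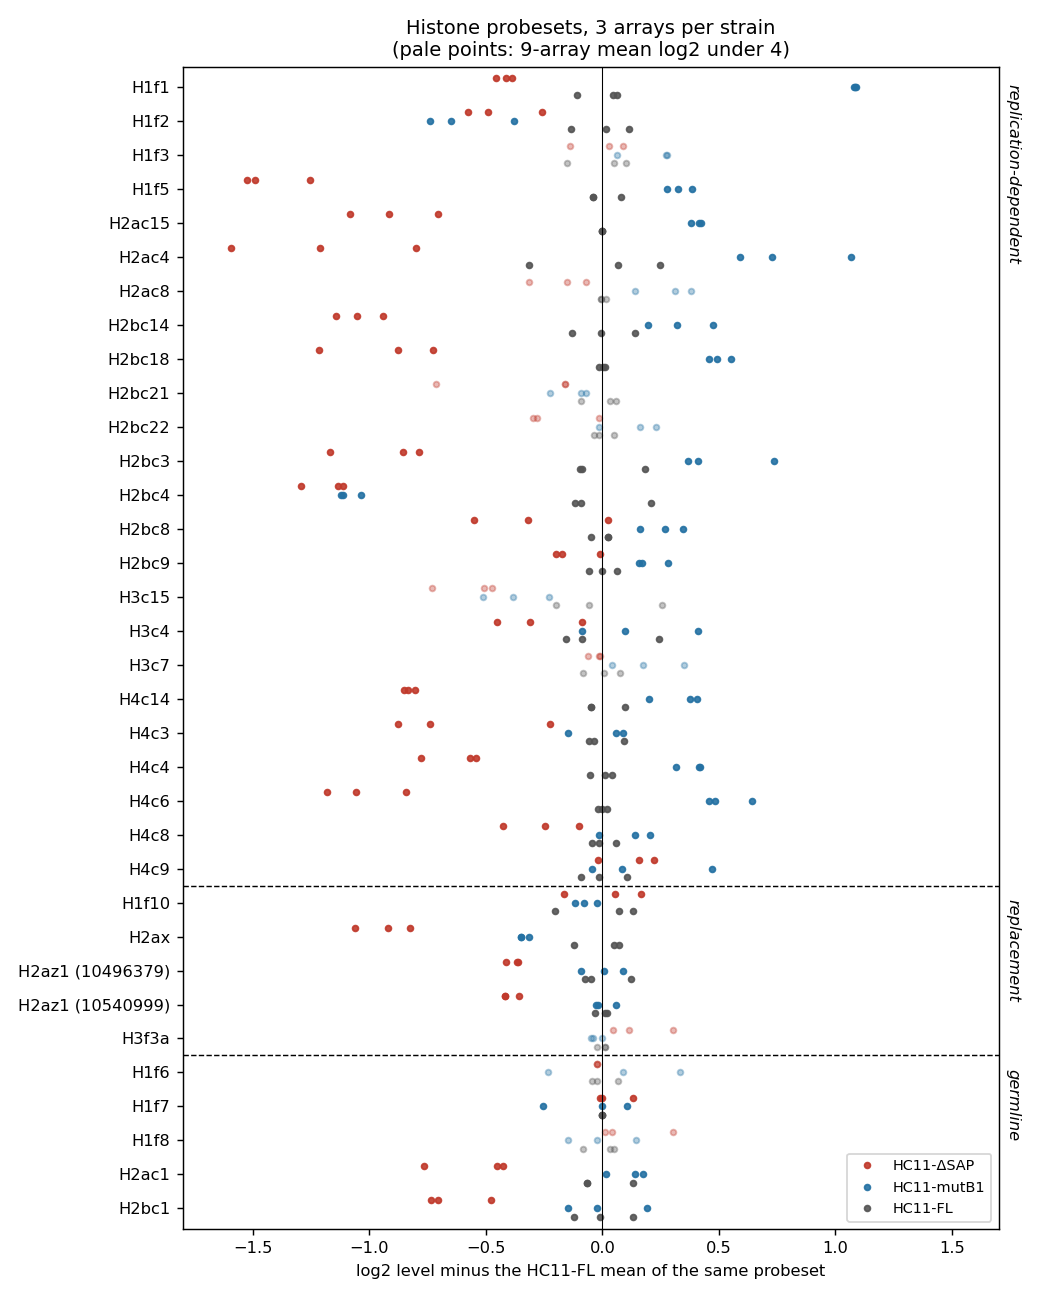
Log2 level of each of the 34 histone probesets in every array, minus the HC11-FL mean of the same probeset; each point is 1 array, with HC11-ΔSAP above HC11-mutB1 above HC11-FL in each row, and pale points mark probesets with a mean log2 level under 4. Most replication-dependent rows have their HC11-ΔSAP points on the left and their HC11-mutB1 points on the right. H2bc4 and H1f2, and the pale H2bc21 and H3c15, have both on the left.

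Because most members lie in 2 clusters, the start of a few of their genes is shown. RefSeq promoter windows (GRCm38.p6, 250 bases before to 50 after the start) were matched by gene ID for 28 of the 33 genes, all but H2ax, H2bc4, H2bc21, H3c7 and H4c14. Short elements were searched on both strands. TATAAA is the letters of a TATA box. The CCAAT box is bound by NF-Y. The octamer ATTTGCAT is bound by Oct-1 and is typical of H2B promoters. The H1 box was searched as AACACAAA and an element of H4 promoters as GGTCCG. The stretches below run from 150 bases before to 20 after the start, 5′ to 3′ in the direction of the gene, and capitals mark these elements on either strand. H1f5, H1f1, H2bc14, H2bc3, H2ac4 and H4c6 are shown as members with low levels in HC11-ΔSAP cells, H1f2 as an H1 gene that did not pass there, and H2az1 as a replacement histone.
H1f5 (chr13:21780606-21780775, minus strand): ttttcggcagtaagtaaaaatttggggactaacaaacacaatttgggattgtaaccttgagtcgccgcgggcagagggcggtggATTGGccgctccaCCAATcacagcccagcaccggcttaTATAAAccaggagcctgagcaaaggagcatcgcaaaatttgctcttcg
H1f1 (chr13:23763518-23763687, plus strand): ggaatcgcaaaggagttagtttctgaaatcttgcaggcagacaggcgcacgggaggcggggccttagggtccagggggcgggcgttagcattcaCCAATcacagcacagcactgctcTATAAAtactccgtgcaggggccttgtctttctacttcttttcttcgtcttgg
H1f2 (chr13:23738657-23738826, plus strand): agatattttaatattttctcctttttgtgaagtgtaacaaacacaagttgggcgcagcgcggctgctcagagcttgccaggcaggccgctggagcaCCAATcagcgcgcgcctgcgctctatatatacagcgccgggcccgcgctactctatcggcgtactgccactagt
H2bc14 (chr13:21721894-21722063, plus strand): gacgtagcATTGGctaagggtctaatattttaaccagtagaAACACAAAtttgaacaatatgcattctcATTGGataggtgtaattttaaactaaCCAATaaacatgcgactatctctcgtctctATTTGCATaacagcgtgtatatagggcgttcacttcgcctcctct
H2bc3 (chr13:23746584-23746753, plus strand): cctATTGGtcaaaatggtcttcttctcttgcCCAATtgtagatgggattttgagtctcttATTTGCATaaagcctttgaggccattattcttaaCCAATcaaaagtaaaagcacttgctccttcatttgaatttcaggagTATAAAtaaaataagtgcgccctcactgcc
H2ac4 (chr13:23750938-23751107, plus strand): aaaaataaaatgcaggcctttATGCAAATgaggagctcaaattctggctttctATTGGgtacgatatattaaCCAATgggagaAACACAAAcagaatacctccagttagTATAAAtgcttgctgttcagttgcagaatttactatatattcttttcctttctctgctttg
H4c6 (chr13:23551649-23551818, minus strand): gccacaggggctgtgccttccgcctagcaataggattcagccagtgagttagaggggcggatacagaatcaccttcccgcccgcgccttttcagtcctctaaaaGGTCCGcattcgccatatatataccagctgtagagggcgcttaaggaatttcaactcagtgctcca
H2az1 (chr3:137864337-137864506, plus strand): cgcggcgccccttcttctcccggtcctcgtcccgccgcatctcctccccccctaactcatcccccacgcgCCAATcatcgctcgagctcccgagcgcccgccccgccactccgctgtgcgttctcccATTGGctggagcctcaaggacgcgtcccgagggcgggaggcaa

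GGTCCG was found in 5 of 5 replication-dependent H4 windows, against 8.25% of all 32851 promoter windows. It was also in 1 of 6 H2B windows and in 1 of 3 replacement windows (H1f10). The octamer was found in 4 of 6 replication-dependent H2B and 2 of 3 H2A windows, against 1.74% of all. It was in 0 of 4 H1, 0 of 2 H3 and 0 of 5 H4 windows of this class. Of the 5 germline windows 2 held it (H2ac1 and H2bc1). Among replication-dependent genes 17 of 20 windows held CCAAT and 13 of 20 held TATAAA, against 37.4% and 13.6% of all windows. None of the 3 replacement windows held TATAAA, and 2 held CCAAT. AACACAAA was in 2 of 20 replication-dependent windows, neither of them of an H1 gene, against 1.69% of all. It was also in 1 of 5 germline windows, that of the H1 gene H1f6, and in 1 of 3 replacement windows (H3f3a). Only exact matches were counted. The printed H1f5 and H1f2 stretches hold this element in all but its last letter, in lower case. The windows of H2ac8 and H2bc8 overlap by 279 bases and those of H2bc1 and H2ac1 by 220, so their matches are not independent. These matches describe the letters in the windows only.

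Among the linker histones, H1f5 (Hist1h1b) fell most. Its log2 level was 7.89, 7.66 and 7.62 in HC11-ΔSAP, 9.47, 9.42 and 9.53 in HC11-mutB1, and 9.11, 9.22 and 9.11 in HC11-FL arrays. The HC11-ΔSAP arrays lay below all others. The log2 fold change to HC11-FL was -1.42 (SE 0.08, adjusted p = 9.5e-06), a 2.68-fold lower level, and that of HC11-mutB1 was 0.33 (adjusted p = 0.020), short of the threshold although the arrays did not overlap.

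H1f1 (Hist1h1a) moved in opposite directions in the 2 mutant strains. It lay at 7.62, 7.55 and 7.60 in HC11-ΔSAP, 9.09, 9.09 and 9.10 in HC11-mutB1, and 7.90, 8.05 and 8.07 in HC11-FL arrays, so that the 3 strains were fully apart. Its log2 fold change to HC11-FL was -0.42 in HC11-ΔSAP (SE 0.05, adjusted p = 8.1e-04) and 1.08 in HC11-mutB1 (SE 0.05, adjusted p = 5.1e-06). It was the one histone probeset at least 2-fold higher in HC11-mutB1 cells than in the control.

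H1f2 (Hist1h1c), a cluster gene known to give polyadenylated mRNA as well, had another pattern. It measured 6.75, 7.06 and 6.83 in HC11-ΔSAP, 6.58, 6.67 and 6.94 in HC11-mutB1, and 7.19, 7.44 and 7.34 in HC11-FL arrays. Both mutant strains lay below HC11-FL without overlap, and they overlapped each other. It passed in HC11-mutB1 against HC11-FL cells, where the log2 fold change was -0.59 (SE 0.12, adjusted p = 0.0097), and not in HC11-ΔSAP against HC11-FL cells (-0.44, adjusted p = 0.035). The HC11-mutB1 call was lost in 7 of the 9 fits that left out an array (adjusted p = 0.013 to 0.039 in limma), with HC11-ΔSAP replicate 2 and HC11-mutB1 replicate 3 as the exceptions. It was also lost when arrays were centred again (adjusted p = 0.019) and when HC11-mutB1 and HC11-FL were fitted alone (adjusted p = 0.021). The fourth H1 probeset, H1f3, stayed at 2.85 to 3.28 in all arrays, under the minimum.

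Of the 3 core histone H2A probesets of the clusters, H2ac4 (Hist1h2ab) and H2ac15 (Hist1h2ak) fell and H2ac8 was under the minimum, with a mean of 2.60. H2ac4 lay at 4.66, 3.87 and 4.25 in HC11-ΔSAP, 6.05, 6.19 and 6.53 in HC11-mutB1, and 5.15, 5.53 and 5.71 in HC11-FL arrays. Its arrays were the most scattered of the called members, yet the strains did not overlap. The log2 fold change of HC11-ΔSAP to HC11-FL was -1.20 (SE 0.23, adjusted p = 0.0065), and this call was lost in 6 of 9 fits without 1 array (adjusted p = 0.011 to 0.028 in limma): without HC11-ΔSAP replicates 2 or 3, HC11-FL replicates 2 or 3, or HC11-mutB1 replicates 1 or 2. It was also lost when HC11-ΔSAP and HC11-FL were fitted alone (adjusted p = 0.021). H2ac15 had a log2 fold change of -0.90 (SE 0.09, adjusted p = 1.6e-04), but its 3 HC11-FL arrays held the same deposited value (7.29), so that its spread may be understated. H1f5, H4c14, H2ax and H2ac1 also held a repeated value within a strain.

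H2B was the largest group, with 8 replication-dependent probesets. In HC11-ΔSAP against HC11-FL cells 4 of them fell (H2bc3, H2bc4, H2bc14 and H2bc18), H2bc8 and H2bc9 did not pass (log2 fold changes -0.28 and -0.13), and H2bc21 and H2bc22 were under the minimum, with means of 3.70 and 3.99. H2bc14 (Hist1h2bm) lay at 7.01, 7.12 and 6.92 in HC11-ΔSAP, 8.38, 8.26 and 8.53 in HC11-mutB1, and 8.20, 7.93 and 8.05 in HC11-FL arrays. Again the HC11-ΔSAP arrays were below all others, with a log2 fold change to HC11-FL of -1.05 (SE 0.10, adjusted p = 1.4e-04).

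H2bc18 (Hist2h2bb), in the chromosome 3 cluster, and H2bc3 (Hist1h2bb), in that of chromosome 13, had similar log2 fold changes. H2bc18 measured 5.92, 5.77 and 5.43 in HC11-ΔSAP, 7.13, 7.20 and 7.10 in HC11-mutB1, and 6.66, 6.65 and 6.63 in HC11-FL arrays. H2bc3 measured 5.16, 5.09 and 4.78 in HC11-ΔSAP, 6.31, 6.36 and 6.68 in HC11-mutB1, and 5.85, 6.13 and 5.86 in HC11-FL arrays. For both genes the 3 strains were apart, with HC11-ΔSAP lowest. Their log2 fold change to HC11-FL was -0.94 in HC11-ΔSAP (adjusted p = 5.1e-04 for H2bc18 and 0.0018 for H2bc3, limma), just short of 2-fold, as was that of H2ax (-0.94), while H4c6 (-1.03) and H2bc14 (-1.05) were just past it.

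H2bc4 (Hist1h2bc), also known for a polyadenylated form of its mRNA, was low in both mutant strains. Its levels were 7.39, 7.55 and 7.57 in HC11-ΔSAP, 7.65, 7.57 and 7.56 in HC11-mutB1, and 8.57, 8.89 and 8.59 in HC11-FL arrays. HC11-FL stood alone, about a full log2 unit above the other two. The log2 fold change to HC11-FL was -1.18 in HC11-ΔSAP (SE 0.09, adjusted p = 6.2e-05) and -1.09 in HC11-mutB1 (SE 0.09, adjusted p = 1.0e-04). HC11-ΔSAP and HC11-mutB1 differed by -0.09 (95% interval -0.30 to 0.13, adjusted p = 0.64). Without HC11-FL replicate 2 the log2 fold change of HC11-mutB1 was -0.99, under 2-fold.

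No member probeset of H3 passed in any comparison by limma. Of the 3 replication-dependent ones only H3c4 (Hist1h3d) was expressed, with a log2 fold change of -0.28 in HC11-ΔSAP against HC11-FL (adjusted p = 0.32) and 0.14 in HC11-mutB1 against HC11-FL cells (adjusted p = 0.64). Its unadjusted p was under 0.05 in neither, and was under 0.05 in HC11-ΔSAP against HC11-mutB1 cells, where the log2 fold change was -0.42 (adjusted p = 0.14). H3c7 and H3c15 were under the minimum, with means of 2.65 and 3.02, although the log2 fold change of H3c15 was -0.57 in HC11-ΔSAP against HC11-FL cells (adjusted p = 0.016, unadjusted p = 0.0023).

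The 6 H4 probesets were all expressed, and 3 fell in HC11-ΔSAP against HC11-FL cells. H4c6 (Hist1h4f) lay at 6.54, 6.88 and 6.66 in HC11-ΔSAP, 8.20, 8.18 and 8.36 in HC11-mutB1, and 7.72, 7.70 and 7.74 in HC11-FL arrays. The strains did not overlap, with HC11-mutB1 highest. Its log2 fold change to HC11-FL was -1.03 in HC11-ΔSAP (SE 0.09, adjusted p = 1.0e-04) and 0.53 in HC11-mutB1 cells (SE 0.09, adjusted p = 0.0039). H4c4 showed the same signs, with -0.63 (adjusted p = 4.0e-04) and 0.38 (adjusted p = 0.0060), and H4c14 fell by 0.83 in HC11-ΔSAP cells (adjusted p = 6.9e-05). H4c3, H4c8 and H4c9 did not pass (log2 fold changes of HC11-ΔSAP -0.61, -0.26 and 0.12), and H4c9 was the one replication-dependent probeset with a positive value.

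**Figure D2:**
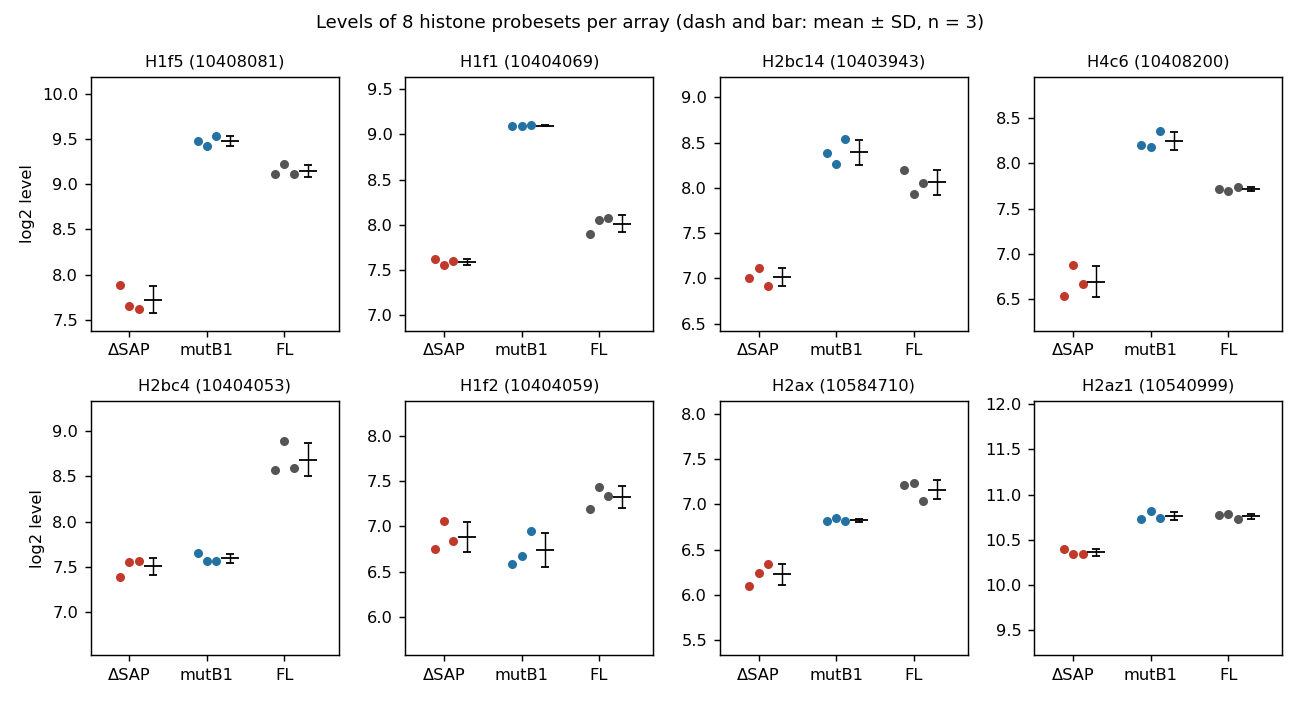
Log2 levels of 8 histone probesets in each array of HC11-ΔSAP, HC11-mutB1 and HC11-FL cells; points are arrays, and the dash and bar give mean ± SD (n = 3). Each panel spans the same range of log2 units around its own mean. H1f5, H1f1, H2bc14 and H4c6 are lowest in HC11-ΔSAP and highest in HC11-mutB1, H2bc4 and H1f2 are low in both, H2ax is graded, and H2az1 is low in HC11-ΔSAP.

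In HC11-mutB1 against HC11-FL cells, histone probesets passed in both directions. Of the 34 members, 25 were expressed. At an adjusted p of at most 0.01, 2 were lower (H1f2 and H2bc4) and 3 higher (H1f1, H4c4 and H4c6). Over all expressed probesets 8.32% were lower and 11.9% higher, so both counts are near the share over all. At least 2-fold lower was 1 member, H2bc4, and 1 was 2-fold higher, H1f1, against 1.21% and 1.65%. The replication-dependent class had a median log2 fold change of 0.23, with 20 of 24 values positive, against a median of -0.014 over all 34760 probesets. Over its 18 expressed probesets the median was 0.33, against -0.020 over all expressed probesets. At an unadjusted p under 0.05, 11 of its probesets were higher and 2 lower, with no share over all probesets counted at that threshold. Both comparisons with HC11-FL use the same 3 HC11-FL arrays.

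The 5 calls in HC11-mutB1 against HC11-FL cells were not equally firm. H1f1 and H2bc4 passed whichever array was left out. The count of higher probesets was 1 without any 1 of the HC11-FL arrays, without HC11-mutB1 replicate 1 or without HC11-mutB1 replicate 3, 6 without HC11-ΔSAP replicate 1, and 5 without HC11-ΔSAP replicate 3. H4c6 lost its call in 6 of 9 such fits (adjusted p = 0.011 to 0.016 in limma), without any 1 of the HC11-FL or HC11-mutB1 arrays, and H4c4 in 7 of 9 (adjusted p = 0.011 to 0.027 in limma), those and the fit without HC11-ΔSAP replicate 2. When the arrays were centred again on their medians, 6 members were higher and 1 lower.

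The direct comparison of HC11-ΔSAP with HC11-mutB1 tests the difference between the mutant strains. Here 15 of 34 members were lower and 0 higher, against 8.45% and 7.25% of expressed probesets, and 20 were lower and 0 higher at an unadjusted p under 0.05. At least 2-fold lower were 10 members, against 1.7%, and 0 were 2-fold higher, against 1.16%. All 10 were replication-dependent: H1f1, H1f5, H2ac4, H2ac15, H2bc3, H2bc14, H2bc18, H4c4, H4c6 and H4c14. The largest difference was that of H2ac4, with a log2 fold change of -2.00 (SE 0.23, adjusted p = 5.8e-04), followed by H1f5 with -1.75 (SE 0.08, adjusted p = 3.7e-06), H4c6 with -1.55 (SE 0.09, adjusted p = 1.3e-05) and H1f1 with -1.50 (SE 0.05, adjusted p = 1.4e-06). The other 6 lay between -1.44 and -1.01. H1f2, in contrast, differed by 0.15 (95% interval -0.13 to 0.42).

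**Figure D3:**
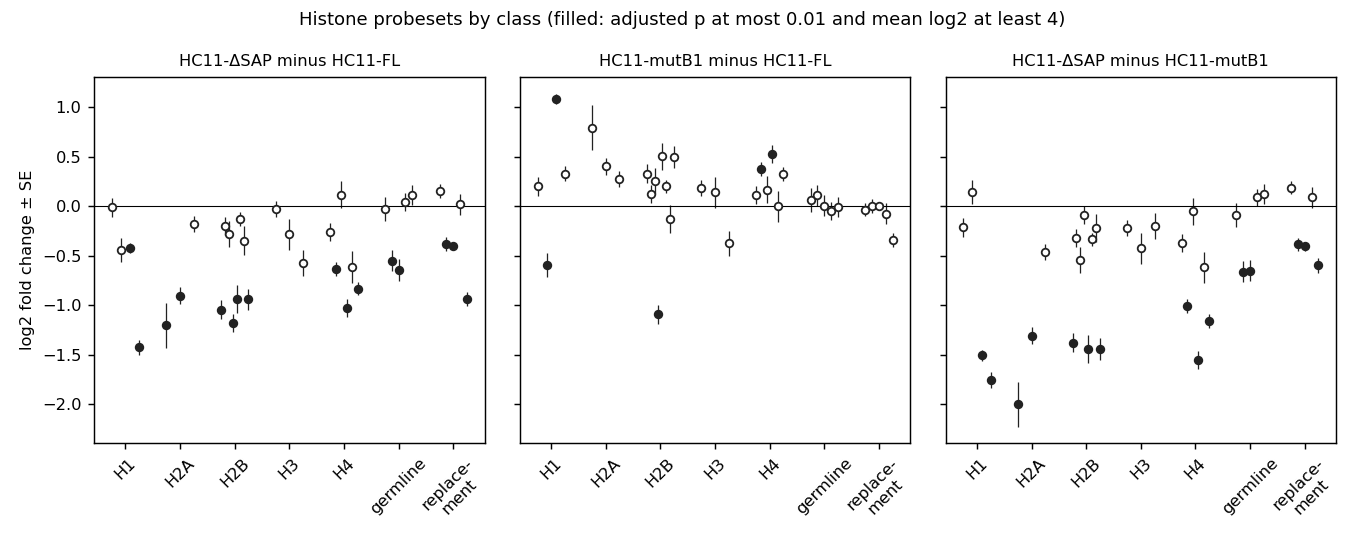
Log2 fold change of each histone probeset, with its SE from limma, by histone type for the replication-dependent class and for the germline and replacement classes, in the 3 comparisons; filled points passed an adjusted p of at most 0.01 with a mean log2 level of at least 4. In HC11-ΔSAP cells the filled points lie below 0 in both comparisons, and in HC11-mutB1 against HC11-FL cells 3 lie above and 2 below.

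None of the replacement histones was 2-fold changed in any comparison. H2ax (H2afx), the H2A variant phosphorylated at DNA breaks, is known to make both kinds of mRNA. It lay at 6.10, 6.24 and 6.34 in HC11-ΔSAP, 6.81, 6.84 and 6.81 in HC11-mutB1, and 7.21, 7.23 and 7.04 in HC11-FL arrays. The strains were in order with no overlap, HC11-ΔSAP lowest. The log2 fold change to HC11-FL was -0.94 in HC11-ΔSAP (SE 0.07, adjusted p = 6.5e-05) and -0.34 in HC11-mutB1 (SE 0.07, adjusted p = 0.014), and HC11-ΔSAP lay 0.60 below HC11-mutB1 (log2 fold change -0.60, adjusted p = 9.8e-04). The value of HC11-mutB1 passed when the table was quantile normalized again (adjusted p = 0.0082 in limma).

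H2az1 (H2afz), the H2A.Z variant found at promoters, had similar changes in both of its probesets. Probeset 10540999 lay at 10.40, 10.34 and 10.34 in HC11-ΔSAP, 10.73, 10.82 and 10.74 in HC11-mutB1, and 10.77, 10.78 and 10.73 in HC11-FL arrays, and probeset 10496379 lay at 8.96, 8.95 and 8.91 in HC11-ΔSAP, 9.23, 9.41 and 9.33 in HC11-mutB1, and 9.27, 9.44 and 9.24 in HC11-FL arrays. In each, HC11-ΔSAP was below both other strains, which overlapped. The log2 fold changes of HC11-ΔSAP to HC11-FL were -0.40 (SE 0.04, adjusted p = 3.6e-04) and -0.38 (SE 0.07, adjusted p = 0.0050). HC11-mutB1 differed from HC11-FL by 0.00 in both, with 95% intervals of -0.10 to 0.11 and -0.16 to 0.16. The call of probeset 10496379 was lost in 6 of 9 fits without 1 array (adjusted p = 0.011 to 0.022 in limma), without any 1 of the HC11-ΔSAP arrays, HC11-FL replicates 1 or 2, or HC11-mutB1 replicate 3. It was also lost when arrays were centred again (adjusted p = 0.014) and when HC11-ΔSAP and HC11-FL were fitted alone (adjusted p = 0.012).

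H1f10 (H1fx) is a linker histone also made outside S phase. It differed from HC11-FL by 0.02 in HC11-ΔSAP (95% interval -0.23 to 0.27) and by -0.07 in HC11-mutB1 cells (95% interval -0.32 to 0.18). The single H3f3a probeset was under the minimum, at 2.66 to 3.02 in all arrays. H3.3 could be followed only through 6 probesets that list H3f3a or H3f3b together with another symbol, with 0 calls by limma in any comparison. At an unadjusted p under 0.05, 1 of them was higher in HC11-ΔSAP cells and 1 in HC11-mutB1 cells, each against HC11-FL, and 0 differed between HC11-ΔSAP and HC11-mutB1. Their median log2 fold change was 0.08 in HC11-ΔSAP and 0.04 in HC11-mutB1 cells.

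The germline genes H2ac1 (Hist1h2aa) and H2bc1 (Hist1h2ba), whose promoter windows overlap on chromosome 13, were lower in HC11-ΔSAP cells. H2ac1 lay at 5.66, 5.69 and 5.35 in HC11-ΔSAP, 6.25, 6.13 and 6.29 in HC11-mutB1, and 6.24, 6.05 and 6.05 in HC11-FL arrays, and H2bc1 at 4.37, 4.34 and 4.60 in HC11-ΔSAP, 5.06, 4.93 and 5.27 in HC11-mutB1, and 5.21, 5.07 and 4.96 in HC11-FL arrays. Their log2 fold changes to HC11-FL were -0.55 (adjusted p = 0.0063) and -0.64 (adjusted p = 0.0039, limma), and no overlap with either other strain was seen. The call of H2ac1 was lost whichever array was left out (adjusted p = 0.010 to 0.024 in limma) and in a fit of HC11-ΔSAP and HC11-FL alone (adjusted p = 0.025), and that of H2bc1 in 4 of the 9 fits without 1 array (adjusted p = 0.015 to 0.019), without HC11-ΔSAP replicates 1 or 2 or HC11-FL replicates 1 or 2. H1f7 did not pass, and H1f6 and H1f8 were under the minimum.

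Across the arrays, the mean deviation of the 24 replication-dependent probesets from their 9-array means was -0.43, -0.43 and -0.49 in HC11-ΔSAP, 0.30, 0.29 and 0.37 in HC11-mutB1, and 0.11, 0.14 and 0.13 in HC11-FL arrays. That of the 5 replacement probesets was -0.18, -0.18 and -0.17 in HC11-ΔSAP, 0.02, 0.06 and 0.04 in HC11-mutB1, and 0.15, 0.13 and 0.11 in HC11-FL arrays. No single array set either pattern. Of the replacement probesets none passed in HC11-mutB1 against HC11-FL cells by limma (1 was lower and 0 higher at an unadjusted p under 0.05), and their median log2 fold change was -0.03.

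Histone genes of a type have very similar coding sequences, and 28 further probesets list a histone of the rule among several symbols, so they name no single gene. Of these 22 are replication-dependent, and 20 of the 22 were expressed. In HC11-ΔSAP against HC11-FL cells 14 of the 22 fell and 0 rose (17 and 0 at an unadjusted p under 0.05, limma), against 10.1% and 11.9% of expressed probesets, with a median log2 fold change of -0.73. In HC11-mutB1 against HC11-FL cells 9 were higher and 0 lower (11 and 0 at an unadjusted p under 0.05, limma), against 11.9% and 8.32% of expressed probesets, with a median of 0.34. H3, which had 1 expressed member above, was represented here by 9 probesets, 8 of them expressed. They all list the same 12 symbols, so they cannot be counted as separate H3 genes. Of the 9, 6 fell in HC11-ΔSAP and 5 were higher in HC11-mutB1 cells, each against HC11-FL, with medians of -0.98 and 0.54. Cross-hybridisation between the copies was not tested, also for the members.

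Genes that make and process histone mRNA did not move one way. Of 24 found of 26 listed, 8 fell and 5 rose in HC11-ΔSAP against HC11-FL cells, with a median log2 fold change of -0.08, where 10.1% of expressed probesets fell and 11.9% rose. Ccne2 and Ccne1, cyclins that activate Cdk2 at the start of S phase, fell by 1.05 and 0.56 on the log2 scale (adjusted p = 0.0022 and 5.7e-04, limma). Npat, the coactivator of replication-dependent histone genes, fell by 0.34 (adjusted p = 0.0058), and Slbp, which binds the histone mRNA stem-loop, fell by 0.47 (adjusted p = 0.0029). Tut4, a uridylyltransferase of histone mRNA decay, rose by 1.08 in HC11-ΔSAP (adjusted p = 8.3e-05) and fell by 0.64 in HC11-mutB1 cells (adjusted p = 0.0015), and Ints3, a subunit of the Integrator complex, rose by 0.57 in HC11-ΔSAP cells (adjusted p = 3.2e-04). In HC11-mutB1 against HC11-FL cells 2 of the 24 fell and 4 rose, against 8.32% and 11.9% of expressed probesets, which is near the share over all. Among those that rose were Casp8ap2 (0.69), a protein of histone locus bodies, Cstf2 (0.55), a cleavage factor, and E2f1 (0.47), the cell cycle transcription factor. In HC11-ΔSAP against HC11-mutB1 cells 8 of the 24 fell and 2 rose, with a median of -0.14, against 8.45% and 7.25% of expressed probesets. Slbp was singled out after its value had been seen.

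Of 22 chaperones and modifiers of new histones, 8 fell and 0 rose in HC11-ΔSAP against HC11-FL cells (16 and 0 at an unadjusted p under 0.05, limma), against 10.1% and 11.9% of expressed probesets, with a median of -0.20. They were led by Anp32e, the H2A.Z chaperone (log2 fold change -1.16, adjusted p = 8.8e-05), Chaf1b, a subunit of the replication-coupled assembly factor CAF-1 (-1.02, adjusted p = 2.1e-05), Asf1b, an H3-H4 chaperone (-0.74, adjusted p = 3.8e-05), and Nap1l1, an H2A-H2B chaperone (-0.68, adjusted p = 4.3e-04). In HC11-mutB1 against HC11-FL cells 4 fell and 4 rose, against 8.32% and 11.9%. Asf1b (0.92) and Mms22l (0.65) rose, and Ipo4 (-0.71), a histone importer, and Supt16 (-0.56), a subunit of FACT, fell. Of 7 other histone variants found, 1 fell and 0 rose in HC11-ΔSAP against HC11-FL cells, against 10.1% and 11.9% of expressed probesets. It was Cenpa, the centromeric H3 (-1.12, adjusted p = 4.2e-04, limma). In HC11-mutB1 against HC11-FL cells 1 of the 7 fell, Macroh2a1 (-0.28), and 1 rose, H2az2 (0.40), against 8.32% and 11.9%. Single calls among 7 genes are close to these shares.

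The list of S phase and proliferation genes had the same signs of its medians as the replication-dependent histones. Of 20 measured, 17 fell and 0 rose in HC11-ΔSAP against HC11-FL cells, with a median log2 fold change of -1.04, against 10.1% and 11.9% of expressed probesets. In HC11-mutB1 against HC11-FL cells 0 fell and 8 rose, with a median of 0.33, against 8.32% and 11.9%. At an unadjusted p under 0.05 by limma, 0 were higher in the first comparison, and 3 were lower and 13 higher in the second. Their summed linear level was 4627 to 5076 in HC11-ΔSAP, 9219 to 10635 in HC11-mutB1 and 7559 to 7964 in HC11-FL arrays. Mcm6, a subunit of the replicative helicase, fell by 2.14 in HC11-ΔSAP cells (adjusted p = 6.2e-07), and Ccna2, the S phase cyclin, fell by 1.59 (adjusted p = 4.5e-06), whereas Ccna2 rose by 0.96 in HC11-mutB1 cells (adjusted p = 6.6e-05). The part of S phase in the histone results was not tested.

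**Figure D4:**
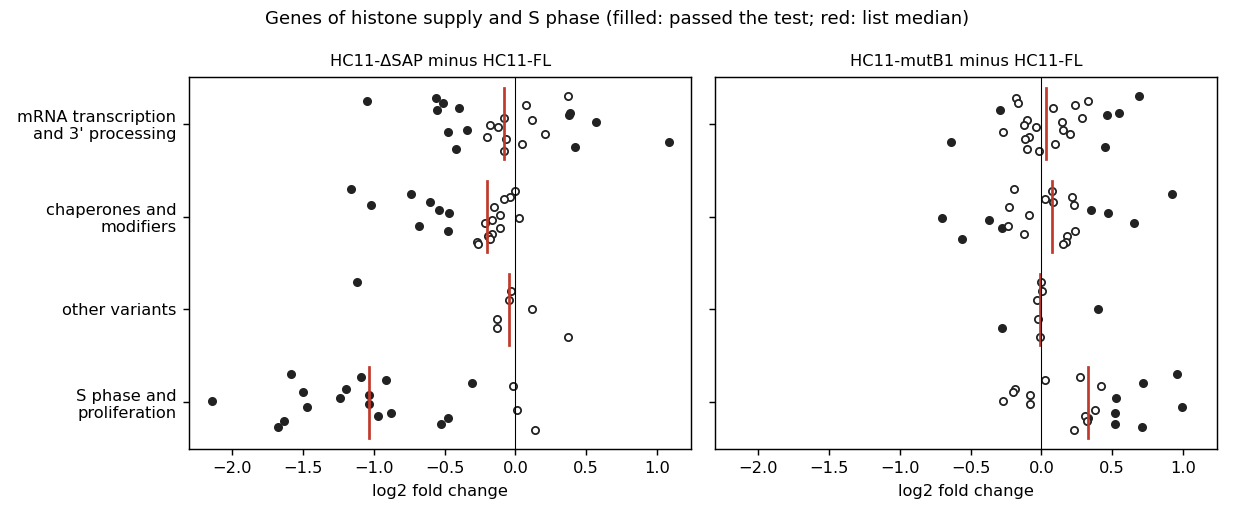
Log2 fold changes of genes that make, process or chaperone histones, of other histone variants and of S phase and proliferation genes, in HC11-ΔSAP and in HC11-mutB1 against HC11-FL cells. Each point is 1 gene, filled if it passed the test, and red lines are list medians. The S phase and proliferation genes have medians of -1.04 and 0.33, and the mRNA transcription and processing genes lie around 0 in both.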

How the data were processed

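RNA of 3 HC11 strains was hybridised to Affymetrix mouse gene arrays, 3 per strain. The authors deposited log2 expression values that they had normalized together with RMA (background correction, quantile normalization and summary by median polish). R 2.10.0 and the affy package are given in the submitters' processing notes. As RMA brings all arrays to 1 distribution, a change in total RNA per cell is not seen. Scan dates were not used here.

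Probesets were named by the platform annotation, in which 21640 have 1 symbol, 1321 several and 11799 none. Array medians lay between 4.53 and 4.60. All 9 arrays entered 1 fit of strain means (limma 3.58.1 under R 4.3.3). P-values were adjusted over all 34760 probesets, and the thresholds were those of the study's methods, namely a mean log2 level of 4 or more, an adjusted p no higher than 0.01 and, where stated, a fold of at least 2. The script was tested on simulated data. An exact permutation test of 3 against 3 arrays cannot give less than p = 0.1. In 15714 probesets (45.2%), and in 14 of the 34 members, 2 or more arrays share a deposited value, within a strain for 11 members.

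Members and gene lists were chosen with earlier results of these data known. Genes were named by rule: replacement members, the 6 largest 2-fold changes per comparison, the largest call per histone type, H1f2, H2bc4 and H2bc21, and the 4 largest calls per list and comparison. Not all list genes of this rule are given above: Top2a, Rrm2, Mki67, Cdt1, Cpsf2 and Hat1 were left out. The remaining members were named after their values were seen, so that all are accounted for. Levels of different probesets were not compared. Alternatives covered the filters, the scaling, the fit, the probeset rule and each array left out.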

Additional observations from a re-analysis of the deposited data

How the results depend on the processing

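Of 204 alternative values of counts and class medians, not counting fits without 1 array, 174 stayed within 1.5 times the count or within the spread of the median, 28 moved and 2 reversed. For HC11-mutB1 against HC11-FL the lower and higher counts were 1 and 6 with arrays centred again, 1 and 5 when these strains were fitted alone, and 5 were higher with eBayes trend and robust settings. A fold minimum of 1.5 gave 12 lower in HC11-ΔSAP and 2 lower in HC11-mutB1 against HC11-FL. With 1 probeset per gene the replacement median was -0.19 in HC11-ΔSAP against HC11-FL and -0.16 against HC11-mutB1. Adding probesets whose several symbols all meet the rule gave 26 lower (9 2-fold) and a replication-dependent median of -0.57 in HC11-ΔSAP against HC11-FL, 11 higher and 0.33 in HC11-mutB1 against HC11-FL, and 27 lower (18 2-fold) and -0.81 in HC11-ΔSAP against HC11-mutB1. Adding all 28, chosen after seeing the data, gave 30 (10 2-fold) and -0.62, 12 and 0.31, and 32 (21 2-fold) and -0.91, and the replacement medians of HC11-ΔSAP turned to 0.020 against HC11-FL and 0.011 against HC11-mutB1, since the 6 H3.3 probesets then count. Without probesets with repeated values the replication-dependent median was 0.20 in HC11-mutB1 against HC11-FL and -0.40 in HC11-ΔSAP against HC11-mutB1.

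The replicate numbers did not pair the arrays (same-number correlations -0.11 to 0.26, different-number -0.26 to 0.23). With the replicate block 1 member was higher in HC11-mutB1 against HC11-FL, and in HC11-ΔSAP against HC11-FL H2ac4 (adjusted p = 0.016 in limma) and H2ac1 (0.013) no longer passed. In HC11-ΔSAP against HC11-mutB1 the block removed the call of H2bc1 (0.012) and added that of H2bc9 (0.0056), and fitting these strains alone removed those of H2ac1 (0.013), H2bc1 (0.016) and H2az1 probeset 10496379 (0.0101), the last also with arrays centred again (0.014), which added H2bc9 (0.0054).

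Without 1 array, 12 to 14 members were lower in HC11-ΔSAP against HC11-FL, 3 to 6 of them 2-fold (3 without HC11-ΔSAP replicate 3), with medians of -0.53 to -0.46 (replication-dependent) and -0.42 to -0.32 (replacement), and 12 of the 16 calls held in all 9 fits. In HC11-mutB1 against HC11-FL 1 to 2 were lower (0 to 1 2-fold) and 1 to 6 higher, with a median of 0.23 to 0.29, and 2 of 5 calls held. In HC11-ΔSAP against HC11-mutB1 12 to 15 were lower, 9 to 10 of them 2-fold, with medians of -0.60 to -0.45 and -0.42 to -0.34, and 12 of 15 held. No log2 fold change that passed changed sign. Except for the values given here and beside the members, causes were not tested. With 3 arrays per strain, small changes of dim histone genes could be missed. The 9 members under the expression minimum could not be called at any p. Of these, H2ac8 differed between HC11-ΔSAP and HC11-mutB1 by -0.46 (adjusted p = 0.0061, limma). Its adjusted p was above 0.01 in 7 of 9 fits without 1 array (0.012 to 0.027).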
